A study of Mus musculus with 8 samples.

Results

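The loss of ENT1 in the annulus of adult mice was read from 4 of the 8 arrays of the study, the 2 titled 6 month ENT1-null AF and the 2 titled 6 month WT AF. Both groups were Black 6 mice aged 6 months. The ENT1-null mice lacked exons 2-4 of Slc29a1, the gene of equilibrative nucleoside transporter 1 (ENT1). The labels name no promoter or Cre that would limit the deletion to a tissue, and no other allele or agent in either group. Each array read RNA of the thoracic annulus fibrosus from a pool of 5-6 tissues, with 200 ng of total RNA labelled per array. The labels do not say whether the 2 pools of a genotype shared mice, so p-values here rest on the spread from pool to pool. The other 4 arrays, 2 of WT and 2 of ENT1-null mice at 2 months, entered the model for its estimate of the spread and for a test of the difference between the ages. Levels are log2 values and differences are ENT1-null minus WT on that scale, so that a difference of 1 is a 2-fold change. Each difference is given with its standard error (SE) from the model and rests on 2 against 2 arrays. Of 22180 genes read, 15526 were tested, the genes whose mean over the 8 arrays reached 6.21, a level that some reached through the arrays of 1 genotype. A gene with a limma p below 0.05 after Benjamini-Hochberg adjustment over those 15526 was called.

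ENT1 is a membrane carrier that lets adenosine and other nucleosides move down their concentration gradient, and in many cells it sets how fast extracellular adenosine is cleared. Adenosine outside the cell is made from released ATP by surface enzymes and acts on receptors, while adenosine inside is phosphorylated to AMP by adenosine kinase. The annulus fibrosus is the ring of the intervertebral disc, tendon-like in its outer lamellae and cartilage-like towards the core. It lies against vertebral bone with its marrow and against the muscles of the back. Mice without ENT1 are known for calcification of spinal tissues that begins after birth and spreads with age.

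Slc29a1 was lower on both ENT1-null arrays, as the labels say. Its level was 10.34 and 10.43 in WT against 8.90 and 8.80 in ENT1-null. The groups did not overlap, and the difference of −1.53 ± 0.09 (limma adjusted p = 0.000354), a 2.89-fold lower level, kept its call without any 1 of the 8 arrays. A second probe set of the gene, below the level tested, gave 4.71 and 4.95 on the WT arrays and 4.87 and 4.46 on the others, values that overlap, and the mean of both probe sets gave −0.84. Which exons each probe set reads was not examined, so the level left in ENT1-null is not a level of intact transcript.

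The arrays read genes typical of the annulus that the labels name, and also genes typical of the marrow and muscle beside it. Where the RNA of the latter came from was not tested. Defining genes of the tissue were well above the array medians of 6.77 to 6.82 on every 6 month array: Acan, the large proteoglycan of cartilage and disc, was 12.50 and 12.71 in WT against 12.09 and 11.87 in ENT1-null, and Comp, a pentameric matrix protein, was 12.41 and 12.30 in WT against 11.70 and 11.37 in ENT1-null. The cartilage matrix list had a mean level of 10.51 and 10.53 on the WT arrays and 9.87 and 9.82 on the ENT1-null arrays. Among genes typical of marrow, the neutrophil list (secondary and tertiary granule genes, 31 tested) stood at 9.08 and 8.08 on the WT arrays and 10.83 and 10.78 on the ENT1-null arrays. The erythroid list (23 tested) stood at 8.13 and 7.52 on the WT arrays and 9.48 and 9.76 on the ENT1-null arrays. The fast fibre muscle list (24 tested) stood at 9.61 and 9.37 on the WT arrays and 7.27 and 8.07 on the ENT1-null arrays. The notochord and nucleus pulposus list, markers of the disc core (15 tested), stood at 9.28 and 9.63 on the WT arrays and 9.49 and 8.94 on the ENT1-null arrays, which overlap. The 2 WT arrays were unlike in neutrophil genes and in mitosis genes. All 31 of the former and all 50 of the latter were higher on replicate 1 than on replicate 2, against 7473 of all 15526 genes. The 2 ENT1-null arrays were unlike in muscle genes, with 23 of 24 fast fibre genes lower on replicate 1. A replicate number given with a result names an array of 6 months unless another age is stated, and each array was left out alone. Results on these genes are given with the arrays they rest on. Kdm5d, of the Y chromosome, was 8.27 to 8.38 on the 4 arrays, and Xist was below the level tested.

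**Figure D1:**
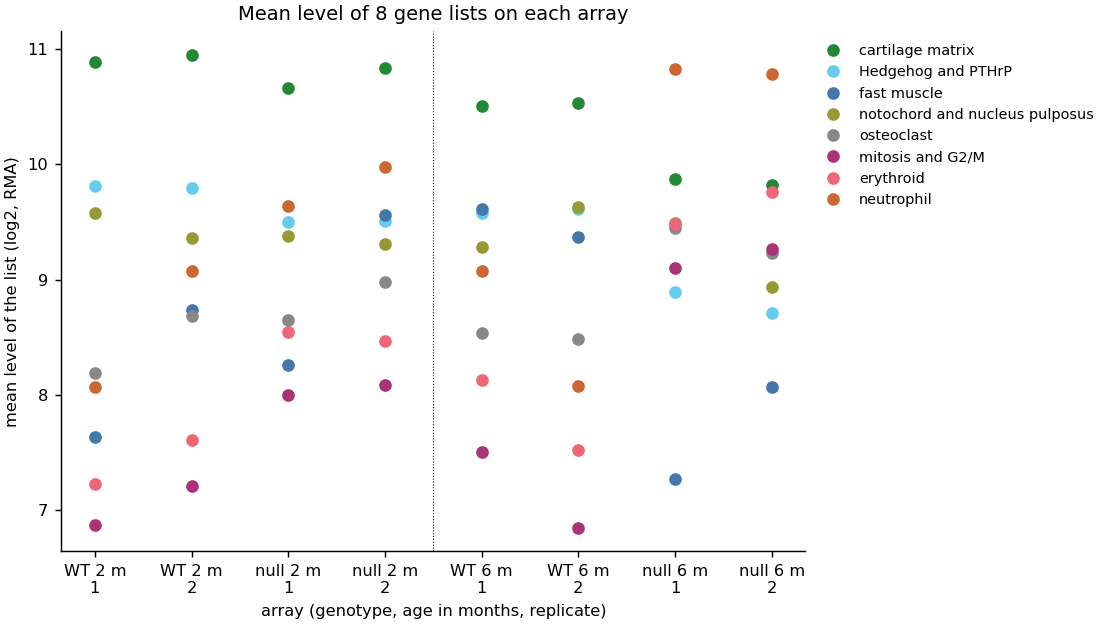
Mean level (log2, RMA) of the tested members of 8 gene lists on each of the 8 arrays, 1 point per list and array, with the 2 month arrays left of the dotted line. At 6 months the neutrophil, erythroid, mitosis and osteoclast lists are higher on both ENT1-null arrays than on both WT arrays, the cartilage matrix, Hedgehog and fast muscle lists are lower, and the notochord list overlaps.

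At 6 months 6022 of the 15526 genes were called (38.8%), 3295 higher (21.2%) and 2727 lower (17.6%). The counts of each gene list below are to be read beside these shares. The called genes moved mostly by less than 2-fold, and the large changes were mostly rises. A difference of at least 2-fold was called in 1352 genes (8.71%), 1025 higher and 327 lower, and one of at least 8-fold in 15 higher and 4 lower genes. The median difference of all tested genes was −0.03, with the 5th percentile at −0.72 and the 95th at 1.22. In 11231 genes (72.3%) both arrays of one genotype lay above both of the other. The share called rose with the level, from 20.6% in the lowest of 5 equal classes by mean level to 53.3% in the highest. Without 6 month WT replicate 2 the calls were 3670, of them 1404 lower. By kind of gene, 40.3% of 13884 named protein-coding and other genes were called, 25.4% of 1208 predicted genes and 19.4% of 170 olfactory and vomeronasal receptors. Of 20 immunoglobulin segments on the array 13 were tested, and 12 of these were higher (median 3.05). Whether some of the 13 reached the level tested through the ENT1-null arrays was not examined. Of 195 tested microRNA genes 12 were higher and 57 lower.

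**Figure D2:**
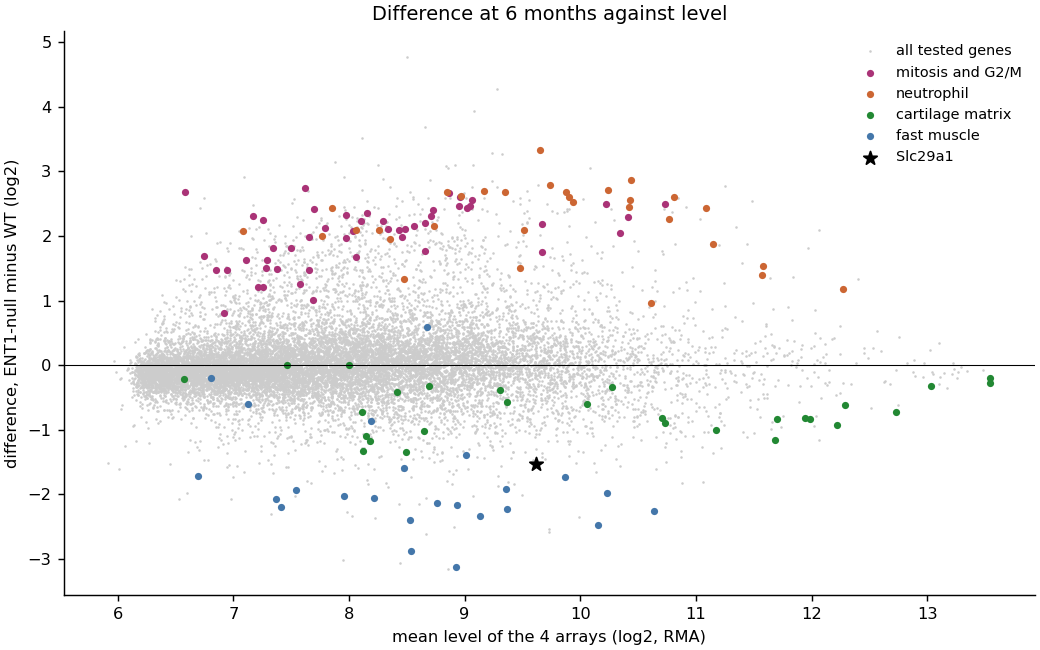
Difference at 6 months (ENT1-null minus WT, log2) of each of the 15526 tested genes against its mean level on the 4 arrays (log2, RMA), with 4 gene lists and Slc29a1 marked. Mitosis and neutrophil genes lie above 0 over the whole range of levels, cartilage matrix genes nearly all below 0, and fast muscle genes mostly near −2.

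Regulators of the cartilage programme fell. Sox9, the transcription factor that starts and maintains chondrocytes, was 11.92 and 12.08 in WT against 10.86 and 10.91 in ENT1-null. It fell by 1.11 ± 0.09 (limma adjusted p = 0.000383), and the groups were far apart against their spread. Sox5, which works with Sox9 on cartilage enhancers, fell by 0.87 ± 0.08, whereas its close relative Sox6 gave 0.01 ± 0.10 (adjusted p = 0.929) with overlapping arrays (9.64 and 9.61 in WT against 9.52 and 9.76 in ENT1-null). Trps1, a GATA-type repressor of the growth plate, fell by 0.94 ± 0.09, and Nkx3-2, a repressor that keeps axial chondrocytes immature, fell by 0.89 ± 0.12. Pax1 and Pax9, which pattern the sclerotome that gives rise to discs and vertebrae, fell by 1.04 ± 0.11 and 0.96 ± 0.10. In the list of chondrocyte regulators 9 of 16 tested genes were lower (56.2%, against 17.6% of all genes) and none higher (median −0.44).

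The cartilage matrix genes fell with their regulators. Of 28 tested, 21 were lower, none was higher and 7 did not pass, with a median of −0.73 and a range of −1.34 to 0.00. Matn3, a matrilin that links collagen and proteoglycan, was 9.20 and 9.13 in WT against 7.79 and 7.84 in ENT1-null and fell by 1.34 ± 0.19 (limma adjusted p = 0.00153). Mia, a small secreted protein of chondrocytes, was 8.72 and 8.85 in WT against 7.54 and 7.37 in ENT1-null and fell by 1.33 ± 0.13 (adjusted p = 0.00045). Cilp, the cartilage intermediate layer protein of the disc, was 12.25 and 12.27 in WT against 11.32 and 10.89 in ENT1-null and fell by 1.16 ± 0.13. In all 3 the lower WT array lay above the higher ENT1-null array, which also holds for 36.8% of all genes. Col9a1, which coats collagen II fibrils, fell by 1.17 ± 0.16, Comp fell by 0.82 ± 0.13 and Acan fell by 0.62 ± 0.11. Col2a1, the main collagen of cartilage, was 11.07 and 11.17 in WT against 10.43 and 10.18 in ENT1-null and fell by 0.81 ± 0.17, a call that ended without ENT1-null replicate 2 (−0.69) and WT replicate 2 (−0.76). Matn1 gave −0.21 ± 0.11 (adjusted p = 0.179). In a bulk sample fewer cells of a type and less RNA per cell cannot be told apart, and the levels of marrow genes given above were higher on the same arrays. Their part in these falls was not tested.

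**Figure D3:**
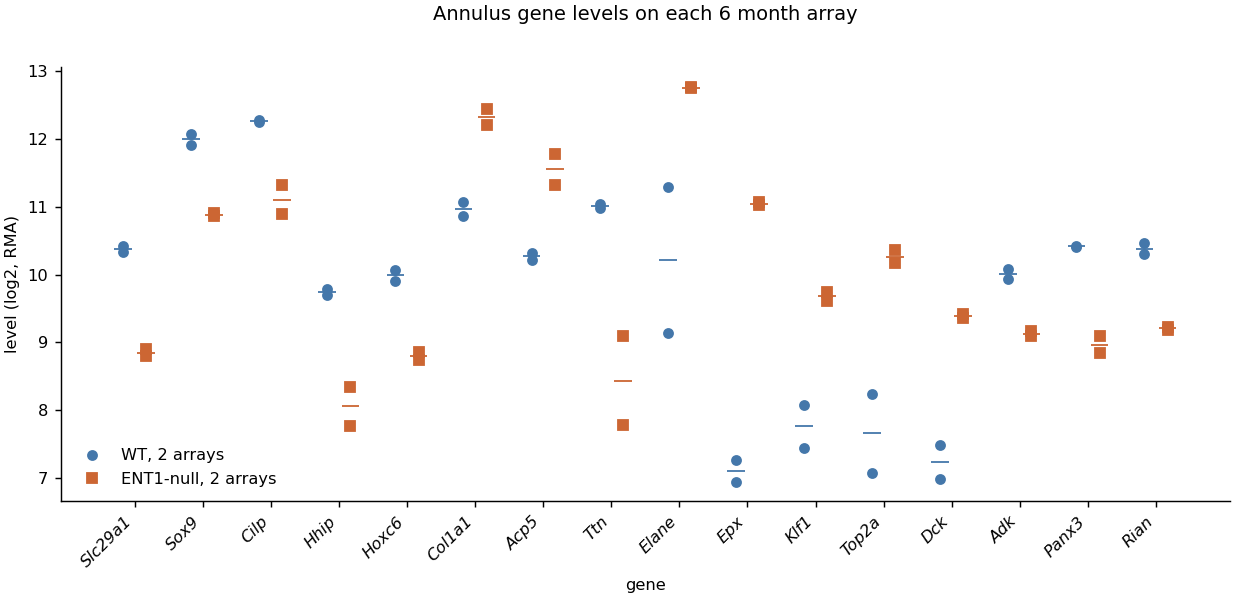
Level (log2, RMA) of 16 genes on each of the 4 arrays of 6 months, with circles for the 2 WT arrays, squares for the 2 ENT1-null arrays and a short line at the mean of each group. No gene shown has overlapping groups, which also holds for 72.3% of all tested genes. Slc29a1, Sox9, Cilp, Hhip, Hoxc6, Ttn, Adk, Panx3 and Rian are lower in ENT1-null, Col1a1, Acp5, Elane, Epx, Klf1, Top2a and Dck higher, and the WT arrays of Elane and Top2a are more than 1 apart.

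Fibrous matrix genes were called lower more often than higher. Of 35 tested fibrillar collagen and small leucine-rich proteoglycan genes 19 were lower, 4 higher and 12 did not pass (median −0.41). The share lower was 54.3%, against 17.6% of all genes, and the share higher 11.4%, against 21.2%. Omd, osteomodulin, was 11.56 and 11.59 in WT against 10.39 and 9.93 in ENT1-null and fell by 1.42 ± 0.17 (limma adjusted p = 0.000879). Fbln1, fibulin 1 of the microfibril surface, fell by 1.17 ± 0.09, Abi3bp, a matrix protein that holds back proliferation in several tissues, fell by 1.15 ± 0.11, and Chadl, a chondroadherin-like protein of cartilage, fell by 1.01 ± 0.14. Fmod, fibromodulin, which shapes collagen fibrils, fell by 0.87 ± 0.08. The higher genes were the chains of type I collagen, tenascin C and lumican. Col1a1 was 11.08 and 10.87 in WT against 12.44 and 12.20 in ENT1-null, so that its arrays did not overlap and it rose by 1.35 ± 0.33, and Col1a2 rose by 1.19 ± 0.25. Lum was 9.80 and 10.02 in WT against 10.44 and 10.55 in ENT1-null and rose by 0.59 ± 0.16, and Tnc rose by 1.14 ± 0.32. The call of Col1a2 held without any 1 of the 4 arrays of 6 months, whereas the calls of Col1a1, Lum and Tnc did not. That of Col1a1 ended without ENT1-null replicate 1 (1.23) and WT replicate 2 (1.24). That of Lum ended without ENT1-null replicate 1 (0.65), ENT1-null replicate 2 (0.53) and WT replicate 1 (0.48). That of Tnc ended without any 1 of the 4 arrays, at 1.06 to 1.22, and the count of higher genes was 1 without ENT1-null replicate 1, 2 without ENT1-null replicate 2, 2 without WT replicate 1 and 2 without WT replicate 2. Col3a1, type III collagen, gave 0.01 ± 0.17 with overlapping arrays (9.69 and 9.63 in WT against 9.56 and 9.79 in ENT1-null).

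In the tendon and outer annulus list 10 of 20 tested genes were lower and none higher (median −0.55). Mkx, the homeobox factor Mohawk of tendon and annulus cells, was 8.97 and 8.99 in WT against 7.52 and 7.64 in ENT1-null and fell by 1.40 ± 0.15 (limma adjusted p = 0.000583). Htra4, a serine protease, was 11.11 and 10.96 in WT against 9.42 and 9.74 in ENT1-null and fell by 1.45 ± 0.13, and Angptl7, a secreted angiopoietin-like protein, fell by 1.35 ± 0.27. The tendon master factor Scx gave −0.43 ± 0.21 (adjusted p = 0.136) and the tenocyte membrane protein Tnmd 0.47 ± 0.26 (adjusted p = 0.186). In each of these 2 genes the arrays of one group lay more than 0.5 apart.

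Elastic fibre genes went both ways. Efemp1, fibulin 3, was 10.82 and 10.93 in WT against 9.34 and 9.38 in ENT1-null and fell by 1.51 ± 0.09 (limma adjusted p = 0.000354), among the tightest large falls in the matrix. Fbln2, which binds fibronectin and fibrillin, fell by 0.98 ± 0.09, Adamtsl4, a microfibril protein, fell by 0.85 ± 0.08, and Ltbp3, a latency protein of TGF-beta, fell by 0.66 ± 0.11. Emilin2, of the elastic fibre interface, was 8.22 and 7.84 in WT against 9.38 and 9.39 in ENT1-null and rose by 1.36 ± 0.18. Fbln5, which guides elastin assembly, rose by 1.16 ± 0.23, and Ltbp2 rose by 0.79 ± 0.15. Elastin itself (Eln) gave −0.25 ± 0.16. In all, 9 of 20 were lower and 3 higher (median −0.44).

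Of the enzymes that modify collagen and glycosaminoglycans, more were lower than higher. Of 25 collagen processing genes 13 were lower, none was higher and 12 did not pass (median −0.36). P4ha2, a prolyl hydroxylase subunit that lets collagen fold, was 9.64 and 9.66 in WT against 8.57 and 8.07 in ENT1-null and fell by 1.33 ± 0.15 (limma adjusted p = 0.000645). Plod2, the lysyl hydroxylase of telopeptide crosslinks, fell by 1.27 ± 0.12, Colgalt2, which glycosylates hydroxylysine, fell by 1.22 ± 0.12, and P3h2, a prolyl 3-hydroxylase, fell by 0.90 ± 0.11. Serpinh1, the collagen chaperone HSP47, gave −0.20 ± 0.17. Of 34 glycosaminoglycan genes 17 were lower, 4 higher and 13 did not pass (median −0.38). Has2, the main hyaluronan synthase of cartilage, was 9.86 and 9.77 in WT against 8.44 and 8.36 in ENT1-null and fell by 1.42 ± 0.14 (adjusted p = 0.000503). Chst1, a keratan sulfate sulfotransferase, fell by 1.25 ± 0.22, Csgalnact2, which starts chondroitin sulfate chains, fell by 1.08 ± 0.14, and Ugdh, which makes their sugar precursor, fell by 0.67 ± 0.10. Hs6st1, Chst13 and Ndst2, sulfotransferases of heparan and chondroitin sulfate, rose by 0.82 ± 0.12, 0.82 ± 0.14 and 0.62 ± 0.09.

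Hedgehog pathway genes were lower as a group, from the receptors to the targets. Of 15 tested genes of Hedgehog and PTHrP signalling, 11 were lower, none was higher and 4 did not pass (median −0.80). Hedgehog ligands bind Patched, which releases Smoothened and lets the Gli factors switch on targets, among them Patched itself, Gli1 and Hhip. The ligand Ihh gave −0.30 ± 0.14 (adjusted p = 0.12). The coreceptors Boc and Gas1 fell by 1.35 ± 0.14 and 1.11 ± 0.17. The receptor Ptch1 was 11.28 and 11.32 in WT against 10.24 and 10.43 in ENT1-null and fell by 0.96 ± 0.09 (limma adjusted p = 0.000453). The factor Gli2 fell by 1.03 ± 0.10 and Gli1 fell by 0.75 ± 0.09. Hhip, a decoy that binds the ligands, was 9.79 and 9.70 in WT against 8.35 and 7.77 in ENT1-null and fell by 1.69 ± 0.17 (adjusted p = 0.00052), the largest fall of the list. In none of these 6 called genes did the groups overlap, which also holds for 72.3% of all genes.

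Genes of the BMP pathway were lower at the level of ligands, receptors and modulators alike. Of 28 tested, 17 were lower, 1 was higher and 10 did not pass (median −0.55). The ligand Bmp6 was 10.36 and 10.29 in WT against 8.98 and 8.69 in ENT1-null and fell by 1.49 ± 0.11 (limma adjusted p = 0.000383), and Bmp2 was 8.52 and 8.55 in WT against 7.67 and 7.93 in ENT1-null and fell by 0.73 ± 0.10. Bmp4 gave 0.21 ± 0.12 with overlapping arrays (7.67 and 7.99 in WT against 8.11 and 7.96 in ENT1-null). The receptor Bmpr1b, which many BMPs of cartilage use, fell by 1.13 ± 0.12, and Bmpr1a fell by 0.99 ± 0.10. Twsg1, a secreted modulator of BMP binding, fell by 0.93 ± 0.14. The 1 higher gene was Acvrl1, a receptor typical of endothelium, which rose by 0.54 ± 0.15, a call that ended without any 1 of the 4 arrays at 0.45 to 0.63.

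In the TGF-beta pathway 15 of 30 tested genes were lower and 2 higher (median −0.35). Of the ligands, Tgfb3 was 10.23 and 10.25 in WT against 9.66 and 9.53 in ENT1-null and fell by 0.65 ± 0.10. Tgfb1 was 10.56 and 10.48 in WT against 10.82 and 10.93 in ENT1-null and rose by 0.36 ± 0.09, a rise whose call ended without ENT1-null replicate 2 (0.30), WT replicate 1 (0.40) and WT replicate 2 (0.32). The coreceptor Tgfbr3 (betaglycan) fell by 0.92 ± 0.12, the receptor Acvr1 fell by 0.70 ± 0.10 and the pseudoreceptor Bambi fell by 0.71 ± 0.12, while Tgfbr2 gave −0.11 ± 0.14. Ccn2, connective tissue growth factor and a target of both TGF-beta and YAP, was 12.05 and 12.23 in WT against 11.21 and 11.09 in ENT1-null and fell by 0.98 ± 0.11 (limma adjusted p = 0.000616).

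Of 44 tested genes of the Wnt pathway 18 were lower, 1 was higher and 25 did not pass (median −0.24; 43.2% called, against 38.8% of all genes). The 2 largest falls were those of secreted antagonists, which bind Wnt ligands outside the cell. Sfrp5 was 10.68 and 10.75 in WT against 9.31 and 9.10 in ENT1-null and fell by 1.51 ± 0.11 (limma adjusted p = 0.000383). Wif1 was 11.42 and 11.35 in WT against 10.53 and 10.19 in ENT1-null and fell by 1.03 ± 0.12, Frzb fell by 0.89 ± 0.10 and Dkk3 fell by 0.85 ± 0.08. Sfrp1 gave −0.13 ± 0.08. The receptor Fzd8 and the nuclear effector Tcf7l2 fell by 0.90 ± 0.16 and 0.94 ± 0.11. Axin2, a feedback target that is often used as a readout of the pathway, gave −0.10 ± 0.08 (adjusted p = 0.342), with a WT level of 6.96 and 6.85 and an ENT1-null level of 6.79 and 6.81.

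FGF genes were called about as often as all genes (38.5%, against 38.8%), IGF genes more often (55.6%) and YAP targets with mechanosensitive channels more often still (70.8%). Of 26 FGF genes 8 were lower, 2 higher and 16 did not pass (median −0.23), the higher count being 1 without ENT1-null replicate 2 and 1 without WT replicate 1, with Fgfr1 down by 0.81 ± 0.09, Fgfr3, a brake on chondrocyte division, by 0.82 ± 0.13 and the target Etv1 by 0.85 ± 0.09. Dusp6, a feedback phosphatase of ERK, was 8.06 and 8.02 in WT against 9.13 and 8.87 in ENT1-null and rose by 0.96 ± 0.15. Of 18 IGF genes 8 were lower and 2 higher. The ligands Igf1 and Igf2 gave 0.63 ± 0.27 and −0.31 ± 0.14, whereas the binding protein Igfbp6 fell by 1.27 ± 0.10 and the binding protein protease Pappa2 fell by 1.12 ± 0.14. Igfbp4 was 9.29 and 9.25 in WT against 10.41 and 10.46 in ENT1-null and rose by 1.16 ± 0.25. Of 24 YAP targets and mechanosensitive channels 14 were lower and 3 higher (median −0.39), and the lower count was 9 without WT replicate 2. The calcium channel Trpv4 was 10.28 and 10.28 in WT against 9.39 and 9.23 in ENT1-null and fell by 0.97 ± 0.12 (limma adjusted p = 0.000909), and Pkd1, polycystin 1, fell by 1.03 ± 0.08. Piezo1 gave −0.19 ± 0.11. Nuak2, a YAP target kinase, rose by 1.05 ± 0.11.

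**Figure D4:**
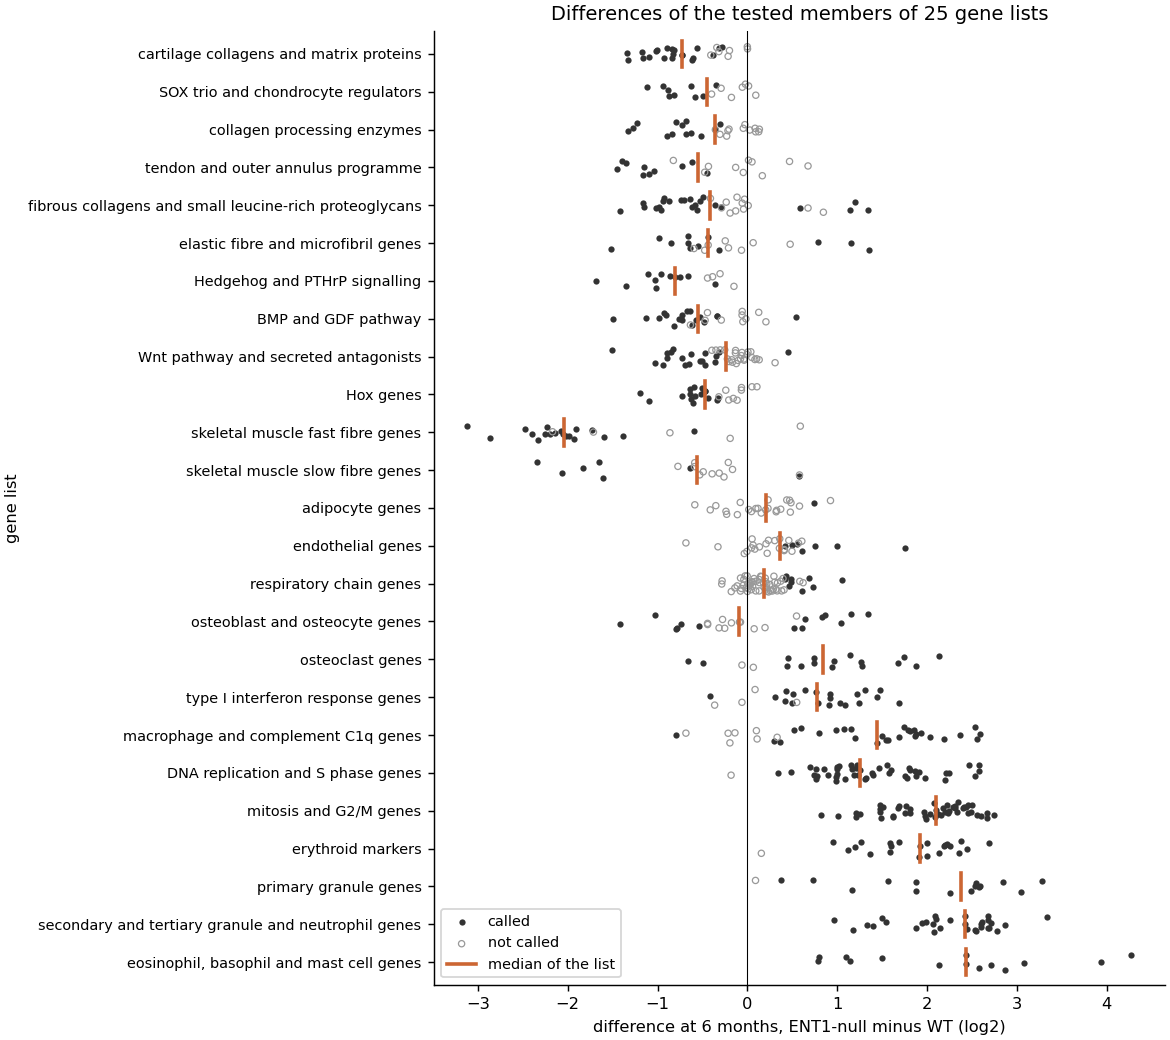
Difference at 6 months (ENT1-null minus WT, log2) of each tested member of 25 gene lists, with filled points for called genes, open points for genes not called and a bar at the median of the list. Hedgehog members all lie below 0 and cartilage matrix members nearly all, adipocyte and respiratory chain members lie on both sides of it, and mitosis, neutrophil and eosinophil members lie above it.

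Positional genes were lower. Of 26 tested Hox genes, which mark the place of a cell along the body axis, 17 were lower, none was higher and 9 did not pass (median −0.47), and the lower count was 11 without ENT1-null replicate 2 and 9 without WT replicate 2. Hoxc6 was 9.91 and 10.07 in WT against 8.85 and 8.74 in ENT1-null and fell by 1.20 ± 0.09 (limma adjusted p = 0.000383), and Hoxc8 was 10.61 and 10.70 in WT against 9.66 and 9.46 in ENT1-null and fell by 1.10 ± 0.10 (adjusted p = 0.000435). Both belong to the part of the cluster that is active at thoracic levels, and in both the groups lay much further apart than the arrays of a group. Hoxc4 fell by 0.73 ± 0.10 and Hoxa2 fell by 0.64 ± 0.11.

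The microRNA genes of the imprinted Dlk1-Dio3 region on chromosome 12 were lower almost throughout. MicroRNAs are short RNAs that pair with messenger RNAs through their seed, bases 2 to 8. The array read 43 of the 61 microRNA genes that RefSeq places between Dlk1 and Dio3, and 23 were high enough to test. Of these 21 were lower, none was higher and 2 did not pass (median −0.94, range −1.73 to 0.00). Mir300, Mir377 and Mir487b, all among the lower genes, passed the level tested with ENT1-null means below it, so that their direction is partly fixed by that level. Of the 172 other tested microRNA genes 12 were higher and 36 lower (median −0.20). Mir453 was 9.40 and 9.40 in WT against 7.60 and 7.73 in ENT1-null and fell by 1.73 ± 0.09 (limma adjusted p = 0.000354). Mir493 was 7.71 and 7.93 in WT against 6.38 and 6.12 in ENT1-null and fell by 1.56 ± 0.14, Mir377 was 7.52 and 7.93 in WT against 6.18 and 6.13 in ENT1-null and fell by 1.57 ± 0.14, and Mir300 was 6.65 and 6.97 in WT against 5.66 and 4.75 in ENT1-null and fell by 1.61 ± 0.27. The long RNA Rian of the same region was 10.31 and 10.46 in WT against 9.23 and 9.18 in ENT1-null and fell by 1.18 ± 0.09 (adjusted p = 0.000383). AF357425, a small nucleolar RNA gene within the RefSeq span of Rian, was 11.86 and 12.07 in WT against 10.04 and 10.26 in ENT1-null and fell by 1.81 ± 0.25. Meg3, the long RNA at the start of the cluster, fell by 0.73 ± 0.18, a call that ended without ENT1-null replicate 1 (−0.44) and WT replicate 2 (−0.59). Dlk1, the protein-coding gene expressed from the other parental chromosome, gave a rise of 0.30 ± 0.09 that ended without any 1 of the 4 arrays, at 0.26 to 0.34. The probe sets read the microRNA genes and not the mature RNAs, and neighbouring genes of the cluster can lie on 1 transcript, so they are not independent measurements.

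**Figure D5:**
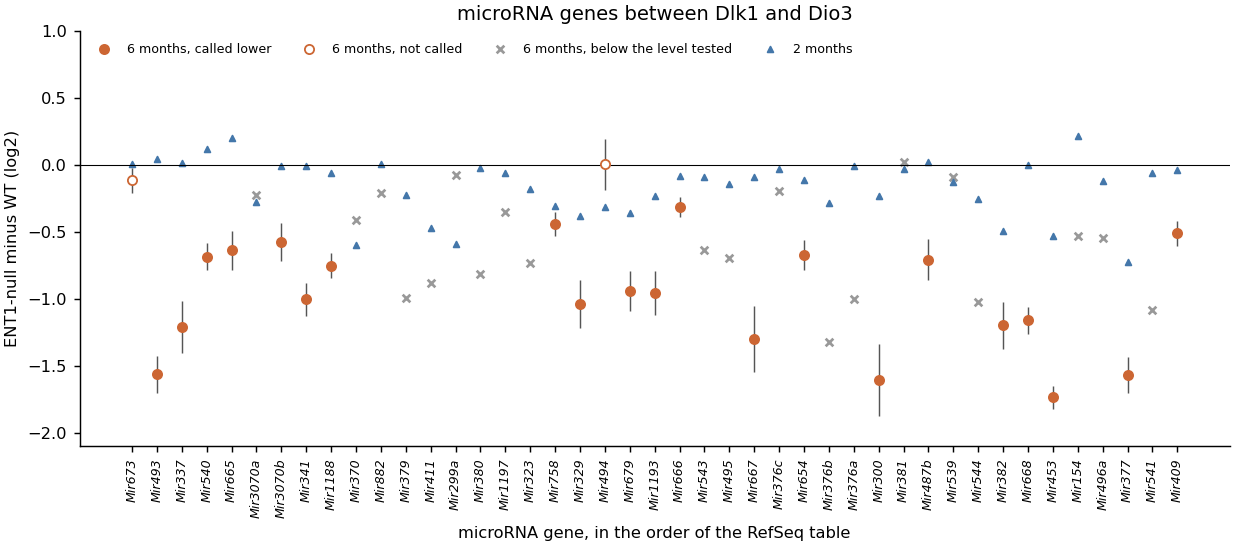
Difference (ENT1-null minus WT, log2) of the 43 microRNA genes read between Dlk1 and Dio3, in the order of the RefSeq table, with circles for 6 months and their SE, crosses for genes below the level tested and triangles for 2 months. The 21 called genes lie between −0.31 and −1.73 at 6 months, and the median of the 23 tested genes is −0.94 at 6 and −0.08 at 2 months.

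Outside that region the share of lower microRNA genes was 20.9%, near the 17.6% of all genes, and that of higher ones 6.98%, against 21.2%. A few of the lower ones are given here, chosen after their values were seen. Mir140, which lies within Wwp2 and is known as the cartilage microRNA, was 10.22 and 10.30 in WT against 9.22 and 8.72 in ENT1-null and fell by 1.29 ± 0.17 (limma adjusted p = 0.00106), while Wwp2 gave −0.40 ± 0.14 (adjusted p = 0.0542). Mir455, a cartilage microRNA within a collagen gene, fell by 0.61 ± 0.12. Mir99a was 9.19 and 9.14 in WT against 7.88 and 7.78 in ENT1-null and fell by 1.34 ± 0.08, and Mirlet7c-1, its neighbour on chromosome 16, was 7.89 and 7.84 in WT against 6.65 and 6.58 in ENT1-null and fell by 1.25 ± 0.16. The microRNA genes named here, Wwp2 and AF357425 were chosen after their values were seen. The mature sequences, from RefSeq (GRCm38.p6), show which of the lower genes share a seed, printed in capitals.
miR-453: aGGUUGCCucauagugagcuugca
miR-493-3p: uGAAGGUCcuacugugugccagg
miR-377-3p: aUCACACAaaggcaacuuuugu
miR-300-3p: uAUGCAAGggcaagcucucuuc
miR-140-3p: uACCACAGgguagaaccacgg
let-7c-5p: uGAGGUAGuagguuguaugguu
miR-99a-5p: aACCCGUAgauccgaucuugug
miR-99b-5p: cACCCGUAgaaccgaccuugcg
miR-181a-5p: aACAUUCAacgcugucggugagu
miR-181b-5p: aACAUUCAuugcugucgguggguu
miR-181d-5p: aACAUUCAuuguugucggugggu
The first 6 have 6 different seeds. Mir99a and Mir99b share theirs, and Mir99b fell by 0.57 ± 0.17, a call that ended without ENT1-null replicate 1 (−0.30), WT replicate 1 (−0.58) and WT replicate 2 (−0.57). The seed of the miR-181 family was shared by genes that moved apart: Mir181a-2 and Mir181b-1 fell by 0.58 ± 0.08 and 0.65 ± 0.12, and Mir181d rose by 0.28 ± 0.09, with 8.36 and 8.31 in WT against 8.67 and 8.55 in ENT1-null. The call of Mir181d ended without ENT1-null replicate 1 (0.22), ENT1-null replicate 2 (0.34), WT replicate 1 (0.30) and WT replicate 2 (0.25).

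Genes of nucleoside transport and adenosine metabolism bear most directly on the deleted gene. Among the other carriers Slc28a2, a sodium-driven purine nucleoside transporter, was 7.29 and 7.08 in WT against 8.43 and 8.22 in ENT1-null and rose by 1.14 ± 0.13 (limma adjusted p = 0.000713). Slc43a3, a purine base carrier, was 10.57 and 10.55 in WT against 11.17 and 11.40 in ENT1-null and rose by 0.73 ± 0.10. The equilibrative relatives gave small differences. Slc29a2 gave −0.20 ± 0.11, Slc29a4 0.12 ± 0.11, and Slc29a3, the lysosomal member, rose by 0.35 ± 0.09, a call that ended without ENT1-null replicate 2 (0.30) and WT replicate 2 (0.33) and gave −0.02 with the mean of its probe sets. Of the enzymes that make extracellular adenosine, Nt5e (CD73), which splits AMP, was 10.94 and 10.85 in WT against 10.22 and 10.18 in ENT1-null and fell by 0.69 ± 0.09, and Alpl, the tissue-nonspecific phosphatase, was 11.09 and 11.35 in WT against 10.49 and 10.37 in ENT1-null and fell by 0.79 ± 0.10. Entpd1 (CD39), which splits ATP and ADP and is also carried by blood cells, was 7.94 and 7.96 in WT against 8.91 and 9.09 in ENT1-null and rose by 1.05 ± 0.15. Panx3, a pannexin channel of cartilage and bone that lets ATP out, was 10.41 and 10.42 in WT against 9.09 and 8.85 in ENT1-null and fell by 1.45 ± 0.14 (adjusted p = 0.000487), while Panx1 rose by 0.64 ± 0.10. Dpp4, a surface peptidase, was 6.40 and 6.08 in WT against 7.71 and 7.53 in ENT1-null and rose by 1.38 ± 0.12. In that list of 18 genes 9 were higher and 4 lower (median 0.49). The 18 include 2 that passed the level tested with WT means below it.

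Inside the cell, adenosine kinase (Adk), which returns adenosine to AMP, was 9.93 and 10.09 in WT against 9.17 and 9.09 in ENT1-null and fell by 0.88 ± 0.09 (limma adjusted p = 0.000579), with groups that did not overlap. Ada, adenosine deaminase, was 6.06 and 6.16 in WT against 7.11 and 6.88 in ENT1-null and rose by 0.89 ± 0.15, and Pnp, which splits inosine, rose by 1.07 ± 0.16. Of 45 genes of purine and pyrimidine salvage 25 were higher and 5 lower (median 0.37), and the lower count was 3 without ENT1-null replicate 1, 3 without ENT1-null replicate 2, 2 without WT replicate 1 and 3 without WT replicate 2. The 4 largest rises of the list were those of Rrm2, Dck, Gda and Tk1. Dck, deoxycytidine kinase, was 7.50 and 6.99 in WT against 9.37 and 9.42 in ENT1-null and rose by 2.15 ± 0.19, Tk1, thymidine kinase, was 8.18 and 7.62 in WT against 9.62 and 10.01 in ENT1-null and rose by 1.92 ± 0.24, and Rrm2, of ribonucleotide reductase, rose by 2.58 ± 0.42. Gda, guanine deaminase, rose by 2.07 ± 0.34. The AMP deaminases differed by isoform: Ampd3, the red cell form, was 8.21 and 7.93 in WT against 9.68 and 9.98 in ENT1-null and rose by 1.76 ± 0.15, and Ampd1, the muscle form, was 8.62 and 8.20 in WT against 6.04 and 6.62 in ENT1-null and fell by 2.08 ± 0.50, a call that ended without ENT1-null replicate 1 (−1.78) and WT replicate 1 (−1.86). Ak4, a mitochondrial adenylate kinase, fell by 1.37 ± 0.21, and Hprt, which salvages hypoxanthine, rose by 0.54 ± 0.08. Ada and Pnp were chosen after their values were seen. Ada is 1 of 2 genes among the 45 that passed the level tested with WT means below it. Erythroid and fast muscle lists moved the same way as Ampd3 and Ampd1 on these arrays, and their part was not tested.

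Every tested gene of mitosis and G2/M rose. The list held 50 tested genes, with a median of 2.11 and a range of 0.82 to 2.75, and its mean level was 7.51 and 6.85 on the WT arrays and 9.10 and 9.27 on the ENT1-null arrays. Of the 50, 5 passed the level tested with WT means below it. The series title names cell proliferation in the disc. Mki67, the usual marker of dividing cells, was 10.17 and 8.80 in WT against 11.90 and 12.06 in ENT1-null and rose by 2.50 ± 0.41 (limma adjusted p = 0.0027). Top2a, the topoisomerase that untangles chromosomes, was 8.24 and 7.08 in WT against 10.17 and 10.36 in ENT1-null and rose by 2.60 ± 0.39. Cdk1, the kinase that starts mitosis, was 8.06 and 7.01 in WT against 10.15 and 10.25 in ENT1-null and rose by 2.67 ± 0.35. In each the groups did not overlap, which also holds for 72.3% of all genes, and WT replicate 1 lay at least 1 above WT replicate 2. Ndc80, of the kinetochore, rose by 2.75 ± 0.29, Birc5, survivin, rose by 2.67 ± 0.27, and the kinases Plk1 and Aurkb rose by 2.46 ± 0.25 and 2.46 ± 0.28. The count was 50 without any 1 of the 4 arrays.

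Genes of DNA replication rose in 46 of 47 cases (median 1.26). The 47 include 1 that passed the level tested with a WT mean below it. Mcm2, of the replicative helicase, was 7.67 and 7.22 in WT against 9.12 and 9.37 in ENT1-null and rose by 1.80 ± 0.16 (limma adjusted p = 0.000427). Pcna, the sliding clamp, rose by 1.16 ± 0.15, Tyms, which makes thymidylate, rose by 1.03 ± 0.15, and the E2F factors E2f2 and E2f8 rose by 2.47 ± 0.20 and 2.58 ± 0.37. Of 25 replication-dependent histone genes on the array 15 were tested, and 11 were higher and none lower (median 1.41). Among them was H1f5, a linker histone (rose by 2.59 ± 0.39). The 15 include 2 that passed the level tested with WT means below it. The 10 histone genes left out had differences above 0 in 6 and below 0 in 4. G1 regulators split, with 14 of 28 higher and 5 lower. Cdk6, which drives G1 and is high in blood progenitors, was 7.44 and 7.12 in WT against 9.39 and 9.39 in ENT1-null and rose by 2.11 ± 0.21 (adjusted p = 0.000497). Ccnd1, the D cyclin most used outside blood, was 8.63 and 8.80 in WT against 8.65 and 8.80 in ENT1-null, values that overlap, and gave 0.01 ± 0.13. Cdkn1a, the p21 inhibitor, was 10.76 and 11.05 in WT against 10.25 and 10.11 in ENT1-null and fell by 0.73 ± 0.13. Markers of blood-forming cells stood high on the same arrays. The erythroid list had a mean of 8.13 and 7.52 on the WT arrays and 9.48 and 9.76 on the ENT1-null arrays, and WT replicate 1 was above replicate 2 in 21 of its 23 genes as in all 50 mitosis genes. The part of such cells in the rise was not tested.

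The promoters of the mitosis genes are shown because most of them hold a motif that few promoters of the replication genes, which also rose, hold. Of 37 mitosis genes with 1 promoter of 300 bases in the RefSeq table (250 before to 50 after the start), 27 held TTTGAA on either strand (73.0%), the core of the element through which many G2/M genes are repressed in resting cells, against 12.5% of 9821 tested genes with such a promoter. The replication list held it in 5 of 36 promoters (13.9%). CCAAT, the NF-Y box, was in 73.0% of the mitosis promoters against 38.0%, and both were in 59.5% against 5.0%. In the printed promoters no copy of one motif overlaps a copy of the other. Printed are the 100 bases before the start of 4 list members that hold both there (GRCm38.p6), with both motifs in capitals wherever either strand holds them.
Cdk1, chr10:69352913-69353012, minus strand: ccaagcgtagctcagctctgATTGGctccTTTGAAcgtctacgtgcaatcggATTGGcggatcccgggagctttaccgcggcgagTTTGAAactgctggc
Top2a, chr11:99024190-99024289, minus strand: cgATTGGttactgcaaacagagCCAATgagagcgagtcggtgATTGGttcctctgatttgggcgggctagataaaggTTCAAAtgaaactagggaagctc
Kif11, chr19:37376282-37376381, plus strand: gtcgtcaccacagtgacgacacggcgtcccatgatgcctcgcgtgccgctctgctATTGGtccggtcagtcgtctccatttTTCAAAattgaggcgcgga
Ube2c, chr2:164769829-164769928, plus strand: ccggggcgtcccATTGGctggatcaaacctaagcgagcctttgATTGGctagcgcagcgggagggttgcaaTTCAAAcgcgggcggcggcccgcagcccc
In each of the 4 the motif nearest the start is TTTGAA, on one strand or the other, downstream of 1 or more CCAAT boxes. Kif11, the spindle kinesin, was 8.41 and 7.16 in WT against 10.26 and 10.43 in ENT1-null and rose by 2.56 ± 0.36, and Ube2c, the ubiquitin carrier of the anaphase-promoting complex, rose by 1.76 ± 0.21. Kif11 and Ube2c were chosen after their values were seen. A match of letters is a description and not evidence that a factor binds there.

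Blood cell genes rose in the red cell, platelet and granulocyte lineages alike. Of 23 erythroid markers 22 were higher and none lower (median 1.92). Klf1, the master factor of red cells, was 8.08 and 7.45 in WT against 9.61 and 9.75 in ENT1-null and rose by 1.92 ± 0.20 (limma adjusted p = 0.000539). Kel, a red cell surface antigen, was 8.68 and 7.70 in WT against 10.67 and 11.10 in ENT1-null and rose by 2.69 ± 0.38, and Slc4a1, the anion exchanger band 3, rose by 2.26 ± 0.37. Heme synthesis and iron import rose with them in 18 of 20 genes (median 1.54), with Fech, which inserts the iron, at 9.55 and 9.16 in WT against 11.04 and 11.38 in ENT1-null and up by 1.85 ± 0.17 (adjusted p = 0.000445), and Slc25a37, mitoferrin 1, up by 1.86 ± 0.24. Blvrb, biliverdin reductase B, rose by 2.01 ± 0.21 and the iron exporter Slc40a1 rose by 1.86 ± 0.18. The motif AGATAA, on either strand, was in 6 of 16 erythroid promoters (37.5%) against 7.1% of all. Of 21 megakaryocyte and platelet genes 19 were higher and 1 lower, with Gp9, a platelet glycoprotein, up by 2.57 ± 0.39. The lower one was Thbs1, thrombospondin 1, at 12.47 and 12.50 in WT against 11.71 and 11.38 in ENT1-null. Which cells gave the RNA of these lists was not tested.

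Granulocyte genes were among the steepest rises. All 31 tested of 35 neutrophil genes on the array were higher (median 2.42), as were 15 of 16 primary granule genes (median 2.37). Not all of the neutrophil calls held when an array was left out. Fewer genes of that list were called without ENT1-null replicate 1, without ENT1-null replicate 2 and without WT replicate 2. The 31 include 1 that passed the level tested with a WT mean below it. The 4 neutrophil genes left out had differences above 0 in 3 and below 0 in 1. Mpo, myeloperoxidase, was 10.38 and 8.73 in WT against 12.20 and 12.08 in ENT1-null and rose by 2.59 ± 0.51 (limma adjusted p = 0.00582), and Elane, neutrophil elastase, was 11.29 and 9.14 in WT against 12.74 and 12.77 in ENT1-null and rose by 2.54 ± 0.62, a call that ended without ENT1-null replicate 1 (2.55) and ENT1-null replicate 2 (2.53). In both genes the WT arrays lay much further apart than the ENT1-null arrays. Fcnb, ficolin B of marrow myeloid cells, rose by 3.29 ± 0.57, and Mmp25, a membrane-bound neutrophil protease, rose by 2.08 ± 0.29. Of 22 eosinophil, basophil and mast cell genes on the array, 14 reached the level tested, and each of these was higher. Their count is partly fixed by that level, since 2 of them, Ccr3 and Mcpt8, passed it with WT means below it, and the 8 genes left out had differences above 0 in 3 and below 0 in 5. Prg2, the major basic protein, was 7.70 and 6.58 in WT against 11.48 and 11.35 in ENT1-null and rose by 4.28 ± 0.52, a 19.4-fold rise. Epx, eosinophil peroxidase, was 7.27 and 6.95 in WT against 11.07 and 11.02 in ENT1-null and rose by 3.94 ± 0.28 (adjusted p = 0.000383), a 15.3-fold rise with tight arrays in both groups. Mcpt8, a basophil protease, rose by 2.44 ± 0.20 and Cpa3, carboxypeptidase A3 of mast cells and basophils, rose by 2.87 ± 0.32, whereas Mcpt4, a protease of mature connective tissue mast cells, was below the level tested at 3.54 to 4.11.

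Lymphoid genes rose in part, with smaller medians. Of 21 genes of B cell development 17 were higher (median 1.00), with Cd79a, of the B cell receptor, at 7.80 and 7.48 in WT against 9.31 and 9.48 in ENT1-null and up by 1.75 ± 0.24. Bank1, a B cell scaffold, rose by 1.94 ± 0.22. The 21 include 1 that passed the level tested with a WT mean below it. The surrogate light chain genes differed, with Igll1 up by 2.15 ± 0.47, a call that ended without ENT1-null replicate 1 (2.02), and Vpreb1 below the level tested (5.66 and 5.79 in WT, 5.83 and 5.65 in ENT1-null). In the plasma cell list 5 of 13 were higher (38.5%, against 21.2% of all genes) and 3 lower (23.1%, against 17.6%). Jchain, the joining chain of secreted antibodies, was 7.76 and 5.86 in WT against 10.45 and 10.56 in ENT1-null and rose by 3.69 ± 0.57, with WT arrays more than 1 apart, while the plasma cell surface gene Sdc1 gave 0.06 ± 0.11. Of 25 T and NK cell genes on the array 15 were tested, and 9 were higher and none lower. Cd3e, of the T cell receptor, was 6.72 and 6.63 in WT against 7.67 and 7.995 in ENT1-null and rose by 1.16 ± 0.12 (limma adjusted p = 0.000499), and Cd4 rose by 1.31 ± 0.12, whereas Cd8a gave 0.30 ± 0.23.

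Macrophage, antigen presentation and interferon genes rose. Of 35 macrophage and C1q genes 27 were higher and 1 lower (median 1.45). Csf1r, the growth factor receptor of macrophages, was 8.01 and 8.003 in WT against 9.57 and 9.58 in ENT1-null and rose by 1.57 ± 0.23 (limma adjusted p = 0.00171), Adgre1 (F4/80) rose by 1.87 ± 0.28, and C1qb, of complement, was 9.32 and 9.29 in WT against 10.61 and 10.89 in ENT1-null and rose by 1.45 ± 0.19. Of 17 dendritic cell and MHC class II genes 11 were higher and none lower, with H2-Ab1 at 8.89 and 8.81 in WT against 10.53 and 10.80 in ENT1-null and up by 1.82 ± 0.23. Of 24 type I interferon response genes 19 were higher and 1 lower (median 0.77), and the higher count was 11 without ENT1-null replicate 2 and 11 without WT replicate 2. Rsad2, viperin, was 8.86 and 8.39 in WT against 10.09 and 10.54 in ENT1-null and rose by 1.69 ± 0.25, Oas3, an RNA sensor, rose by 1.48 ± 0.15, and Irf7, the factor that amplifies the response, rose by 0.91 ± 0.11. Isg15 and Mx1 were below the level tested. GAAACT, part of the interferon response element, was in 10 of 15 such promoters (66.7%) against 14.4% of all. Of 33 cytokine, chemokine and receptor genes 15 were higher and 3 lower. Il1b was 7.14 and 6.86 in WT against 9.04 and 9.23 in ENT1-null and rose by 2.14 ± 0.21 (adjusted p = 0.000474), and Tnf was 6.67 and 6.64 in WT against 7.47 and 7.46 in ENT1-null and rose by 0.81 ± 0.10. The receptor Il1r1 was 9.88 and 9.81 in WT against 9.13 and 9.06 in ENT1-null and fell by 0.75 ± 0.09. Ptgs2 gave −0.24 ± 0.09, and Il6 was below the level tested at 3.72 to 3.84. WT means lay below that level in 2 tested macrophage genes, 2 dendritic cell genes, 2 interferon genes and 3 cytokine genes. ENT1-null means did so in 2 macrophage genes and 1 cytokine gene.

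Genes of bone-resorbing cells rose, while bone-forming genes went both ways. Of 18 osteoclast genes 14 were higher and 2 lower (median 0.85). The 18 include 1 that passed the level tested with a WT mean below it. Acp5, the tartrate-resistant phosphatase, was 10.32 and 10.22 in WT against 11.78 and 11.33 in ENT1-null and rose by 1.28 ± 0.38 (limma adjusted p = 0.0328), and Ctsk, cathepsin K, was 9.32 and 9.30 in WT against 10.87 and 10.28 in ENT1-null and rose by 1.26 ± 0.34. The groups did not overlap, yet both calls ended when an array was left out. That of Acp5 ended without any 1 of the 4 arrays, at 1.05 to 1.51, and that of Ctsk ended without ENT1-null replicate 1 (0.96), WT replicate 1 (1.27) and WT replicate 2 (1.25). The list's count of higher genes was 8 without ENT1-null replicate 1, 6 without WT replicate 1 and 9 without WT replicate 2. Atp6v0d2, a proton pump subunit, rose by 1.68 ± 0.33, and Nfatc1, the master factor of osteoclasts, fell by 0.49 ± 0.09. The receptor of calcitonin, Calcr, a marker of mature osteoclasts, was below the level tested. Of 25 osteoblast and osteocyte genes 8 were higher and 6 lower (median −0.09), with the higher count at 1 without ENT1-null replicate 1, 5 without ENT1-null replicate 2, 5 without WT replicate 1 and 2 without WT replicate 2. Bglap, osteocalcin, was 6.57 and 6.90 in WT against 7.85 and 7.70 in ENT1-null and rose by 1.04 ± 0.20 (adjusted p = 0.00534), and Sp7, osterix, was 9.41 and 9.52 in WT against 9.06 and 8.79 in ENT1-null and fell by 0.54 ± 0.11, a call that ended without WT replicate 2 (−0.48). Sost, made by osteocytes, gave −0.08 ± 0.14. With all arrays 32.0% of the osteoblast and osteocyte list were higher and 24.0% lower, against 21.2% and 17.6% of all genes.

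Genes of mineralization were called in 45.5% of cases, near the 38.8% of all genes, with 4 of 22 higher and 6 lower (median −0.07). The higher count was 2 without ENT1-null replicate 1 and 2 without WT replicate 1. Ank, which exports pyrophosphate or its source ATP, was 11.29 and 11.34 in WT against 10.81 and 10.93 in ENT1-null and fell by 0.44 ± 0.09, a call that ended without WT replicate 2 (−0.42). Vkorc1 and Ggcx, the vitamin K enzymes that activate the protein of Mgp, fell by 0.76 ± 0.09 and 0.56 ± 0.11. Mgp itself was 12.79 and 12.86 in WT against 12.54 and 12.54 in ENT1-null and fell by 0.28 ± 0.09 (limma adjusted p = 0.0328), a call that ended without any 1 of the 4 arrays, at −0.32 to −0.25. Alpl, which splits pyrophosphate, fell as given above, while Entpd1 and Bglap were among the higher genes. Of 28 matrix proteases and inhibitors 11 were higher and 8 lower (median 0.46). The 28 include 2 that passed the level tested with WT means below it. The higher count was 7 without ENT1-null replicate 1 and 6 without WT replicate 2. The lower count was 5 without WT replicate 1 and 5 without WT replicate 2. Mmp9, gelatinase B of osteoclasts and neutrophils, was 10.21 and 10.20 in WT against 12.15 and 12.02 in ENT1-null and rose by 1.88 ± 0.38, and Timp1, an inhibitor, was 8.17 and 8.28 in WT against 9.36 and 9.42 in ENT1-null and rose by 1.17 ± 0.15 (adjusted p = 0.00109). Timp2 fell by 0.59 ± 0.09 and Timp4 fell by 1.06 ± 0.20. Adamts5, the main aggrecanase of mouse cartilage, gave −0.16 ± 0.16.

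Skeletal muscle genes were lower in ENT1-null, with a large spread between arrays. Of 24 fast fibre genes 19 were lower and none higher (median −2.04), and of 47 sarcomere, triad and energy genes 36 were lower (median −1.12). The 24 include 1 and the 47 include 4 that passed the level tested with ENT1-null means below it. The same holds for 2 slow fibre genes and 1 gene of the list of muscle regulators. Ttn, titin, was 10.98 and 11.04 in WT against 7.78 and 9.10 in ENT1-null and fell by 2.58 ± 0.61 (limma adjusted p = 0.0134). Its WT arrays lay close together and its ENT1-null arrays more than 1 apart, with replicate 1 the lower. The call ended without ENT1-null replicate 1 (−1.92), WT replicate 1 (−2.61) and WT replicate 2 (−2.55). Myh4, the fastest myosin, was 10.82 and 10.15 in WT against 6.81 and 7.93 in ENT1-null and fell by 3.12 ± 0.75, a call that ended without ENT1-null replicate 1 (−2.56) and WT replicate 1 (−2.78). Myot, myotilin of the Z disc, was 10.38 and 10.48 in WT against 6.76 and 7.79 in ENT1-null and fell by 3.15 ± 0.60 (adjusted p = 0.00517). The counts fell when an array was left out. For the fast list the count was 2 without ENT1-null replicate 1, 2 without WT replicate 1 and 5 without WT replicate 2. With moderation by trend and robust it was 5, and with all probe sets 12. For the sarcomere list it was 10 without ENT1-null replicate 1, 22 without WT replicate 1 and 11 without WT replicate 2. Slow fibre genes were lower in 6 of 18 cases, a count of 1 without ENT1-null replicate 1 and 0 without WT replicate 2, with Myh7, the slow myosin, at −0.59 ± 0.39. Of the regulators of muscle cells, Myod1 fell by 0.37 ± 0.11, a call that ended without ENT1-null replicate 1 (−0.29), WT replicate 1 (−0.32) and WT replicate 2 (−0.43). Myog gave −0.15 ± 0.07 and the satellite cell factor Pax7 −0.11 ± 0.09. At 2 months the median of the fast list was 0.83, in the other direction, with 0 of 24 called.

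Adipocyte, endothelial, respiratory chain, citrate cycle and cholesterol genes were called less often than all genes, and cytosolic ribosomal proteins somewhat more often. Of 25 adipocyte genes 1 was higher, none lower and 24 did not pass (4.0%, against 38.8% of all genes). It was Pparg, which macrophages and osteoclasts also express (rose by 0.74 ± 0.13), and Adipoq, adiponectin, gave 0.37 ± 0.13. Which cells gave the RNA of Pparg was not tested. Of 28 endothelial genes 7 were higher, a count of 3 without any 1 of the 4 arrays. Stab2, of sinusoidal vessels such as those of marrow, was 6.41 and 6.23 in WT against 7.85 and 8.31 in ENT1-null and rose by 1.75 ± 0.16 (limma adjusted p = 0.000427), while the vascular cadherin Cdh5 gave 0.41 ± 0.22. Respiratory chain genes were called in 9 of 64 cases (14.1%, median 0.18), all higher, and that count was 5 without ENT1-null replicate 1, 5 without ENT1-null replicate 2 and 3 without WT replicate 2. Citrate cycle and fatty acid oxidation genes were called in 15.2% of 33 cases and cholesterol synthesis genes in 15.8% of 19. Cytosolic ribosomal proteins were higher in 17 of 41 cases (41.5%, against 21.2% of all genes) and lower in 1 (median 0.27), and the higher genes came to a count of 8 without ENT1-null replicate 1 and 4 without WT replicate 2.

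Glucocorticoid, clock and immediate early genes were called in 48.1%, 31.6% and 33.3% of cases, around the 38.8% of all genes. Of 27 glucocorticoid-responsive genes 10 were lower and 3 higher (median −0.44), with the lower count at 6 without ENT1-null replicate 1, 6 without ENT1-null replicate 2 and 6 without WT replicate 2. Serpina6, which binds corticosteroids in blood, was 9.14 and 9.76 in WT against 6.26 and 6.62 in ENT1-null and fell by 3.01 ± 0.23 (limma adjusted p = 0.000383), and Zbtb16, a zinc finger factor, was 10.11 and 10.45 in WT against 8.58 and 8.35 in ENT1-null and fell by 1.81 ± 0.19. Fkbp5, the usual target, gave −0.15 ± 0.30. Hsd11b1, which regenerates active steroid, rose by 1.40 ± 0.17. Of 19 clock genes 6 were lower, with Cry2, a repressor, at 9.36 and 9.36 in WT against 8.22 and 7.99 in ENT1-null and down by 1.26 ± 0.11. Arntl and Dbp, which swing in opposite phase, gave −0.91 ± 0.36 and 0.16 ± 0.43, with ENT1-null arrays more than 1 apart in both. The time of day at which tissue was taken is not given. The E-box CACGTG was in 3 of 13 clock promoters (23.1%) against 9.6% of all. Of 27 immediate early genes 9 were lower and none higher, with Klf4 at 10.28 and 10.11 in WT against 8.93 and 8.77 in ENT1-null and down by 1.35 ± 0.10, whereas Fos and Jun gave −0.74 ± 0.52 and −0.39 ± 0.15.

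Of 32 hypoxia and glycolysis genes 15 were lower and 3 higher (median −0.31). Hif1a, the oxygen-regulated factor on which disc cells depend, was 10.85 and 10.94 in WT against 10.09 and 9.98 in ENT1-null and fell by 0.86 ± 0.09 (limma adjusted p = 0.000532), and its target Adm, adrenomedullin, fell by 1.17 ± 0.17. Car9, another target, gave 0.11 ± 0.10. Of 21 antioxidant genes 11 were higher and 2 lower. Hmox1, heme oxygenase 1, was 7.70 and 7.06 in WT against 9.11 and 9.71 in ENT1-null and rose by 2.03 ± 0.31, Prdx2, abundant in red cells, rose by 1.39 ± 0.15, and Sod3, the matrix superoxide dismutase, was 11.45 and 11.60 in WT against 10.37 and 10.49 in ENT1-null and fell by 1.10 ± 0.10 (adjusted p = 0.00044). Nqo1, the usual NRF2 target, gave 0.09 ± 0.10. Of the list of p53 targets and DNA damage 15 of 30 were higher and 6 lower, and 1 of the 30 passed the level tested with a WT mean below it. The 4 largest rises were those of H2ax, the histone that marks DNA breaks, Chek2, a checkpoint kinase, and the repair genes Brca2 and Brca1, by 2.21 ± 0.28, 1.90 ± 0.18, 1.63 ± 0.09 and 1.62 ± 0.15, while the p53 target Mdm2 gave −0.14 ± 0.13. Of 31 ER stress and amino acid response genes 17 did not pass, 8 rose and 6 fell (median −0.06; 45.2% called, against 38.8% of all genes). The higher count was 5 without WT replicate 1, and the lower count 3 without WT replicate 2. Among the higher was Asns, asparagine synthetase, at 8.52 and 8.14 in WT against 9.71 and 9.63 in ENT1-null and up by 1.34 ± 0.13, and among the lower Dnajb9, an ER chaperone, which fell by 0.66 ± 0.11, whereas the factors Atf4 and Ddit3 gave 0.02 ± 0.09 and −0.09 ± 0.09.

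The genes next to Slc29a1 were called about as often as all genes. Of the 40 tested genes nearest to it on chromosome 17, 20 on each side, 6 were higher and 8 lower (14 in all, against 38.8% of all genes), and of the 10 nearest 1 was higher and 1 lower. The count of 14 was 8 without WT replicate 1 and 9 without WT replicate 2. The largest differences were those of Pla2g7, a phospholipase of macrophages (rose by 1.85 ± 0.19), Nfkbie, an NF-kappa-B inhibitor (rose by 0.89 ± 0.14), and Gtpbp2, a ribosome rescue factor (rose by 0.80 ± 0.08).

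The effect at 6 months differed from that at 2 months in 691 genes (4.45%, limma), with 398 more positive (2.56%) and 293 more negative (1.89%) at the later age. At 2 months 106 genes were called (0.683%). Of the matrix and signalling genes above, Sox9 differed by −0.75 ± 0.12 (adjusted p = 0.0383), Has2 by −1.32 ± 0.20, Hhip by −1.45 ± 0.24, Hoxc6 by −1.07 ± 0.13 and Panx3 by −1.32 ± 0.20, each with the larger fall at 6 months. Their 2 month differences were −0.36, −0.10, −0.24, −0.13 and −0.12. Of the rising genes Epx differed by 2.02 ± 0.39 (adjusted p = 0.0418) and Cd3e by 1.16 ± 0.16. The fall of Slc29a1 itself gave a difference of −0.12 ± 0.13 (adjusted p = 0.599). By list, 10 of 28 cartilage matrix genes, 5 of 15 Hedgehog genes and 7 of 28 BMP genes were more negative at 6 months, and 12 of 50 mitosis genes were more positive. These calls mostly ended when 1 array was left out. Their number was 0 without either 6 month ENT1-null array, without either 2 month WT array, without 2 month ENT1-null replicate 2 or without 6 month WT replicate 2, where limma gave 2874 to 4181 genes an unadjusted p below 0.05. It was 21 without ENT1-null replicate 1 of 2 months and 319 without WT replicate 1 of 6 months. Every call between the ages that is named here therefore ended in at least 6 of the 8 leave-outs.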

How the data were processed

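RNA from pooled thoracic annulus fibrosus was read on 8 arrays, 2 for each genotype (WT, ENT1-null) and age (2, 6 months). The deposited table holds log2 values that the authors normalized with RMA, per the submitters' processing notes, with no version, background setting or genome build given in the sources used here. RMA makes the distribution of values alike on all arrays, so that a shift of all genes would not show. The number of arrays limits the precision, and an array has no count behind its values.

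Of 41345 probe sets, 23521 carried 1 gene symbol in the platform annotation, 1814 several and 16010 none. The single-symbol probe set with the highest mean of the 8 arrays stood for each of 22180 genes, of which 21994 matched RefSeq by gene ID, and 1082 genes had more than 1. Genes whose mean reached the 30th percentile (6.21) were tested, 15526 in all. ENT1-null means of tested members lay below it in 1 gene each of the Wnt, IGF, Hox, hypoxia and keratinocyte lists. They did so in 2 genes of the FGF list and 3 of the neuron list. A model of 4 groups was fitted with limma 3.58.1 (R 4.3.3, lmFit and eBayes, 4 residual degrees of freedom) for the genotype at 6 months, at 2 months and for the difference between them, with Benjamini-Hochberg adjustment and calls below 0.05. The code was tested on simulated data. Tables were made with Python 3.11.15 and pandas 2.3.3. Replicate numbers were checked for pairing by the correlation of deviations from group means.

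Named genes were Slc29a1, the 12 largest rises and falls, the 6 largest differences between the ages each way, key members of 66 gene lists whatever their result, up to 4 called members per list with the largest difference each way and 3 neighbours of Slc29a1, with predicted genes, receptors of smell, small RNAs and further immunoglobulin segments passed over. Not every gene allowed is named. The members and lists were chosen with earlier results of these data known. Lists are described by counts and medians beside those of all genes. Alternatives were the filter, the scaling, the probe set rule, the block, the moderation, the arrays fitted, the call rule and leaving out each array. Promoter and microRNA sequences are from RefSeq tables (GRCm38.p6). Motifs were searched on both strands.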

Additional observations from a re-analysis of the deposited data

Results flagged for a closer look

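For 66 of the 264 tested genes named in the text, the difference between ENT1-null and WT at 6 months was unlike that at 2 months by limma (adjusted p below 0.05). Values are the 6 month difference minus the 2 month difference on the log2 scale, so that a negative value means a more negative difference at 6 months. Among the matrix genes and their enzymes the value was −0.82 in Mia, −0.77 in Abi3bp, −0.64 in Fbln1, −0.68 in Fmod, −1.22 in Efemp1, −0.54 in Adamtsl4, −1.11 in Ecm2, −1.32 in Has2, −0.96 in P4ha2, −0.71 in P3h2 and −0.86 in Plod2. For regulators of cartilage, tendon and position it was −0.72 in Sox5, −0.75 in Sox9, −0.66 in Trps1, −0.76 in Pax1, −0.65 in Pax9, −1.01 in Mkx, −0.71 in Hoxc4, −1.07 in Hoxc6, −1.0 in Hoxc8 and −1.21 in Klf4. In the Hedgehog genes it came to −0.94 in Boc, −0.78 in Ptch1, −0.65 in Gli2 and −1.45 in Hhip. For BMP, Wnt and FGF genes it stood at −1.12 in Bmp2, −1.03 in Bmp6, −0.72 in Bmpr1a, −0.92 in Bmpr1b, −0.88 in Sfrp5, −0.80 in Frzb and −0.66 in Etv1. Among genes of small RNAs and the Dlk1-Dio3 region it was −1.20 in Mir453, −1.61 in Mir493, −1.18 in Mir99a, −1.31 in Mirlet7c-1, −0.61 in Mir181a-2, −0.97 in Mir181b-1, −1.85 in AF357425 and −0.91 in Rian. In genes of channels, stress and other kinds the value was −1.32 in Panx3, −0.78 in Hif1a, −1.37 in Adm, −0.72 in Sod3, −1.68 in Hspa1a, −1.32 in Penk, −1.17 in Prkg2, −0.73 in Pmp22 and −4.30 in Myot. Among the named genes positive values were fewer, whereas over all genes 398 were positive and 293 negative. For blood and immune genes the value was 2.02 in Epx, 1.68 in Mcpt8, 1.18 in Ccr3, 1.16 in Cd3e, 1.04 in Cd4, 1.41 in Il1b, 0.75 in Irf7, 1.48 in Gpnmb and 1.32 in Dyrk3. Among genes of DNA and nucleotides it was 1.38 in E2f2, 1.27 in Chek2, 1.05 in Brca1, 1.21 in Brca2 and 0.98 in Ampd3. In other genes it was 1.26 in Dpp4, 0.70 in Gtpbp2 and 0.59 in Ndst2. The call of each of these genes ended in at least 6 of the 8 fits without 1 array. No group had the 4 arrays that a check for a single array standing apart needs.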

How the results depend on the processing

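With 2 arrays a group, each array weighs much. A fit without 1 array also has fewer residual degrees of freedom, so that a call can end while the difference changes little. Without 1 array at a time 3670 to 5887 genes were called at 6 months, 2266 to 3254 higher and 1404 to 2633 lower, and the lowest counts came without 6 month WT replicate 2. Calls between the ages numbered 0 to 319, those among the 40 neighbours of Slc29a1 8 to 13, and lists with most tested members called one way 15 to 30, against 28 of 66 with all arrays.

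Calling by an unadjusted p under 0.05 and a 1.5-fold difference gave 3072 genes (1901 higher, 1171 lower), 6 neighbours and 1896 genes between the ages. The between-age count of 691 was 11 with no filter on level, 0 with all probe sets, 1102 with trend and robust moderation and 2383 at an adjusted p below 0.1. With no filter 88 microRNA genes were lower, against 57. Scaling moved the share of calls that were higher from 54.7% to 48.9% (quantile) and 61.1% (centred), and shifted the median of all genes by less than 0.1. The p53 list's median of 0.33 turned to −0.07 with the filter at the 50th percentile, which tests fewer members, and Slc29a3 turned to −0.024 with the mean of its probe sets. Other counts moved by over 1.5 times were clock genes lower (10 with quantile scaling), ribosomal protein genes higher (11 and 9 with quantile scaling and all probe sets), T and NK cell genes higher (14 with no filter) and endothelial genes higher (13 with only the 6 month arrays). Their causes were not tested.

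The replicate numbers do not pair the 6 month arrays, whose deviations correlated at −0.148 between the genotypes. The replicate block gave 3146 higher and 2554 lower genes at 6 months and 353 between the ages, and with the ENT1-null numbers crossed, chosen after seeing the data, 5875 genes at 6 months and 0 between the ages. Of 222 named genes called at 6 months, 200 kept the call under every alternative fitted and 22 lost it under at least 1. They lost it most often without WT replicate 2 and without ENT1-null replicate 1 of 6 months. Some of the 222 were named for a large called difference or for a call that held without any 1 array. The 200 of 222 is thus no rate for all genes. Genes near background limit precision on arrays, with 20.6% called in the lowest of 5 classes by level.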

Other observations

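Genes outside the lists fell as far as the matrix genes, and they are given here as values. Apart from Sectm1b and Tprg they were chosen after their values were seen, for size and for a call that held without any 1 of the 4 arrays of 6 months. Sectm1b and Tprg fell steeply with small errors: Sectm1b was 9.88 and 10.06 in WT against 6.81 and 7.01 in ENT1-null and fell by 3.07 ± 0.19, and Tprg was 9.80 and 10.15 in WT against 7.31 and 7.42 in ENT1-null and fell by 2.61 ± 0.15 (limma adjusted p = 0.000354 for both). Scel, sciellin of stratified epithelia, was 9.12 and 9.13 in WT against 7.25 and 6.45 in ENT1-null and fell by 2.28 ± 0.24. Gpld1, a phospholipase that cuts proteins from their membrane anchor, was 10.36 and 10.33 in WT against 8.69 and 8.34 in ENT1-null and fell by 1.83 ± 0.13 (adjusted p = 0.000383). Ecrg4, a secreted peptide precursor known in cartilage, was 11.83 and 11.75 in WT against 10.23 and 9.71 in ENT1-null and fell by 1.82 ± 0.17. Ecm2, a matrix protein, was 11.42 and 11.49 in WT against 9.87 and 9.84 in ENT1-null and fell by 1.60 ± 0.11. Prkg2, the cyclic GMP kinase that growth plate chondrocytes need to mature, was 8.90 and 8.95 in WT against 7.40 and 7.39 in ENT1-null and fell by 1.53 ± 0.09 (adjusted p = 0.000354). Penk, proenkephalin, was 9.52 and 9.76 in WT against 8.20 and 8.26 in ENT1-null and fell by 1.41 ± 0.11, and Glp1r, the receptor of glucagon-like peptide 1, fell by 1.47 ± 0.16. In each of these genes both ENT1-null arrays lay below both WT arrays, against 36.8% of all genes. The way these genes were chosen largely fixed this.

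The inducible heat shock genes Hspa1a and Hspa1b, near-identical copies whose signals cannot be told apart with certainty, were lower. Hspa1a was 9.94 and 10.50 in WT against 8.43 and 8.28 in ENT1-null and fell by 1.86 ± 0.23 (limma adjusted p = 0.00094), and Hspa1b fell by 1.82 ± 0.26. Of 19 neuron and Schwann cell genes 5 were lower and 1 higher, with Pmp22, a myelin protein that other cells also make, at 10.95 and 10.93 in WT against 10.06 and 9.91 in ENT1-null and down by 0.95 ± 0.09, and Rbfox3, of neurons, at 0.00 ± 0.18. Of 9 keratinocyte genes 2 were lower and 1 higher, and Krt14 was below the level tested. Of 15 notochord and nucleus pulposus markers 3 were lower and 1 higher. These neuron, keratinocyte and notochord lists were called in 31.6%, 33.3% and 26.7% of cases, below the 38.8% of all genes. Krt19, a marker of the disc core, was 7.34 and 8.34 in WT against 8.59 and 6.87 in ENT1-null, so that the arrays of a group differed by more than the groups did.

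Gpnmb, a glycoprotein of macrophages and osteoclasts, was 8.38 and 8.40 in WT against 9.81 and 9.65 in ENT1-null and rose by 1.34 ± 0.11 (limma adjusted p = 0.000383), with 2 month difference −0.14. Dyrk3, a kinase of late erythroid cells, was 6.60 and 6.61 in WT against 8.21 and 8.19 in ENT1-null and rose by 1.59 ± 0.10. Gpnmb, Dyrk3, Hspa1a and Hspa1b were chosen after their values were seen.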
